A study of Mus musculus with 71 samples.

Results

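Whole blood of HOCl-induced mice treated with the anti-galectin-3 monoclonal antibody (mAb) E07 was compared with whole blood of control mice, to describe which transcripts still differed from control after treatment. The mice were chosen by their labels alone, and comprised 12 E07 and 11 control mice, 23 of the 71 mice of the series. All mice were female BALB/c AnNRj animals of 6 weeks of age at the start. HOCl, which generates oxidative stress in the skin and induces features of systemic sclerosis (SSc), was given by intradermal injections of 300 µL, 5 days a week over 6 weeks, whereas control mice received PBS. E07, a human IgG1 carrying the LALA mutations that weaken the binding of its Fc part to Fc receptors, was injected subcutaneously at 20 mg/kg from 1 day before induction and then, from day 5, every 5 days until euthanasia. The labels name no HOCl group given an irrelevant antibody, and no control group given E07. The other HOCl groups (n = 12 each) were untreated HOCl mice, mice given D11, which is another anti-galectin-3 mAb, and mice labelled D06 and BPR21, whose treatments are not described in the sources used here. Control and experimental mice were bred in separate cages, so that effects of cage and of group cannot be told apart. A genotype tag of the labels reads HOCL for the control mice too, and the groups were taken from the sample titles.

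Galectin-3, encoded by Lgals3, is a lectin that binds the sugar chains of cell surface and matrix glycoproteins and is made in particular by macrophages and monocytes. A mAb that blocks it is a protein, and its own transcript is not present in the treated mouse. Whole blood mixes granulocytes, lymphocytes, monocytes, platelets and red cell precursors, each with marker transcripts of its own. In such a mixture, fewer cells of a type and less RNA per cell cannot be told apart.

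Between 12696749 and 14474204 reads were counted on genes in E07 mice and between 12909228 and 15861471 in control mice, with no difference detected in the total (two-sided permutation test with 100000 resamples, p = 0.644) or in the size factor (p = 0.902). Lineage markers of B and T cells, monocytes, neutrophils, platelets and red cell precursors were all present, which fits the labelled tissue, and 0 of 10 fibroblast markers were in the table of tested genes. Control mouse 12 stood apart from its group, with a median correlation of 0.937 with the other control mice against 0.966 to 0.983 for all other mice of both groups with their own group, and with the highest erythroid share of counts, 14.9%. E07 mice 5, 9 and 10 held 20309, 4875 and 3780 counts from 19 liver genes such as Alb and Apoa1, a set chosen after the values were seen, against 0 to 53 counts in each of the other 20 mice. Over the whole series, 17 libraries, these 3 E07 libraries among them, held liver sums far above that range, and 0 of the 17 were control libraries. Counts for the main gene lists are given with and without control mouse 12 and E07 mice 5, 9 and 10. The libraries of the other HOCl groups with high liver sums were kept in every comparison. What leaving them out would change was not tested.

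A single gene differed between the blood of E07 and control mice by both of the main tests. Of the 10508 genes with deposited vst values (a log2-like scale on which counts are corrected for library size), 1 gene (0.00952%) passed both thresholds, an FDR of at most 0.05 by limma and a fold-change of at least 1.3. That gene was Ighg1, and it was higher in E07 mice. The same single gene passed among 13176 genes tested on counts with edgeR (0.00759%). DESeq2 on the counts of the genes with vst values called 20 genes, 11 higher and 9 lower, among them Ighg1, Ccr3, Alox15, Adora3, P2ry6, Mest, Tubb2a and Id3. The liver genes Fabp1 and Alb were also among the 20, Fabp1 with the smallest p. At an unadjusted p under 0.05 there were 799 genes (7.6%) by limma, 438 genes with higher values (4.17%) and 361 with lower values (3.44%) in E07 mice, and with edgeR 391 (2.97%) and 430 (3.26%). Over all genes, 50.7% had a higher and 49.3% a lower mean in E07 mice by limma, and 47.4% a higher one with edgeR. For scale, the same test of untreated HOCl against the same control mice called 503 genes higher (4.79%) and 18 lower (0.171%). The 95% interval of the difference lay entirely within 1.3-fold for 9053 genes (86.2%) on the compressed vst scale and for 3267 on the scale of log2 (CPM + 1), and 91 genes (0.866%) had an estimate of 1.3-fold or more. The median width of the interval was 0.36 on the log2 scale. The largest positive estimate was 1.11 for Alb, the liver gene of serum albumin (FDR = 0.731), whose counts came from E07 mice 5, 9 and 10.

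**Figure D1:**
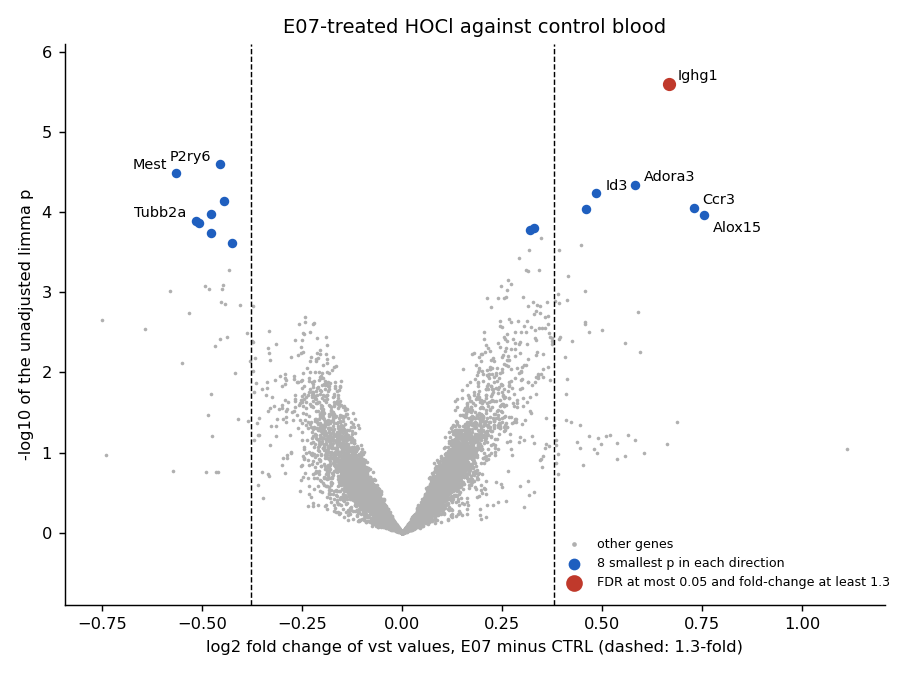
Each point is 1 of 10508 genes, with its log2 fold change (E07 minus CTRL, vst values) on the x axis and the -log10 of its unadjusted limma p on the y axis. Ighg1, in red, is the only gene past an FDR of 0.05 and a fold-change of 1.3; blue points are the other genes among the 8 with the smallest p in each direction, none of which passes the FDR.

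Ighg1 encodes the constant region of the heavy chain of mouse IgG1, an antibody class that B cells produce after switching from IgM and IgD. It lies on chromosome 12 at chr12:113288860-113294143 (GRCm39, minus strand), among the other heavy chain constant genes. The hinge exons of the 4 IgG heavy chain genes are shown because they separate these related genes. Capitals mark runs of 8 or more bases that a hinge exon shares with another of the 4, and coordinates are those of GENCODE vM39 on the minus strand of GRCm39, read 5′ to 3′.
Ighg1, chr12:113293464-113293502: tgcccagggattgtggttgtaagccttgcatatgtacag
Ighg2b, chr12:113270881-113270946: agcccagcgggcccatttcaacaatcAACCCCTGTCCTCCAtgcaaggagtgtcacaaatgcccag
Ighg2c, chr12:113251883-113251945: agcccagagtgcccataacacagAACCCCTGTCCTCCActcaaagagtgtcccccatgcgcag
Ighg3, chr12:113324149-113324196: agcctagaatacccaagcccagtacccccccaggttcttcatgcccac
The Ighg1 hinge exon of 39 bases shared 0 bases in such runs, whereas those of Ighg2b and Ighg2c shared 15 bases with each other. Over the 1076 bases of the secreted Ighg1 transcript, 0 of 1027 runs of 50 bases occurred in any transcript of another gene of the annotation. The reference genome is of another inbred strain than BALB/c, and allelic differences were not examined.

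Ighg1 was the gene that remained different from control. Its counts were 64, 115 and 270 (lowest, median and highest) in E07 mice and 11, 45 and 81 in control mice, and its mean level was 10.0 CPM in E07 and 3.36 CPM in control mice. On the vst scale the values were 7.25, 7.66 and 8.35 in E07 and 6.74, 7.06 and 7.44 in control mice. All 12 E07 mice were above the control median and 11 exceeded all control values on this scale, so that a single E07 mouse fell within the control range. On counts 10 E07 mice exceeded all control mice, and on CPM 9 did. The vst means were 7.75 ± 0.33 (SD, n = 12) and 7.08 ± 0.22 (n = 11), a log2 fold change of 0.67 with a standard error of 0.11 and a 95% interval of 0.44 to 0.90 (limma FDR = 0.0262). The vst scale compresses differences at low counts, and the log2 fold change on counts was 1.56 (edgeR FDR = 0.0190).

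The direction and size of the Ighg1 difference held in each of the 23 fits that left out a mouse, with log2 fold changes of 0.61 to 0.71 by limma and 1.45 to 1.68 with edgeR, but its FDR did not stay under the threshold. In a fit of all 6 groups, which share an estimate of the spread, it was 0.324 by limma and 0.221 with edgeR. By limma the FDR was 0.0504 to 0.0717 without E07 mouse 2, 3, 8, 9 or 11 or control mouse 1, 2, 4 or 12, and with edgeR it was 0.0511 to 0.0625 without E07 mouse 11 or 12 or control mouse 2, 4 or 7. Without E07 mice 5, 9 and 10 together, the log2 fold change was 0.70 by limma (FDR = 0.102) and 1.63 with edgeR (FDR = 0.0598).

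The level of Ighg1 was not particular to E07 among the HOCl groups. Its counts were 21, 100.5 and 391 (lowest, median and highest) in untreated HOCl mice, 36, 88.5 and 212 in D11 mice, 10, 73.5 and 240 in D06 mice and 31, 59.5 and 134 in BPR21 mice. Against the same 11 control mice, which all of these comparisons share, the log2 fold change on the vst scale was 0.76 in HOCl (limma FDR = 0.00562), 0.74 in D11 (FDR = 0.0120), 0.60 in D06 (FDR = 0.0164) and 0.37 in BPR21 mice (FDR = 0.0727). E07 mice differed from HOCl mice by -0.10 (95% interval -0.44 to 0.25, FDR = 0.755), and neither the difference from D11 (-0.07), from D06 (0.07) nor from BPR21 mice (0.30, FDR = 0.103) passed the test.

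**Figure D2:**
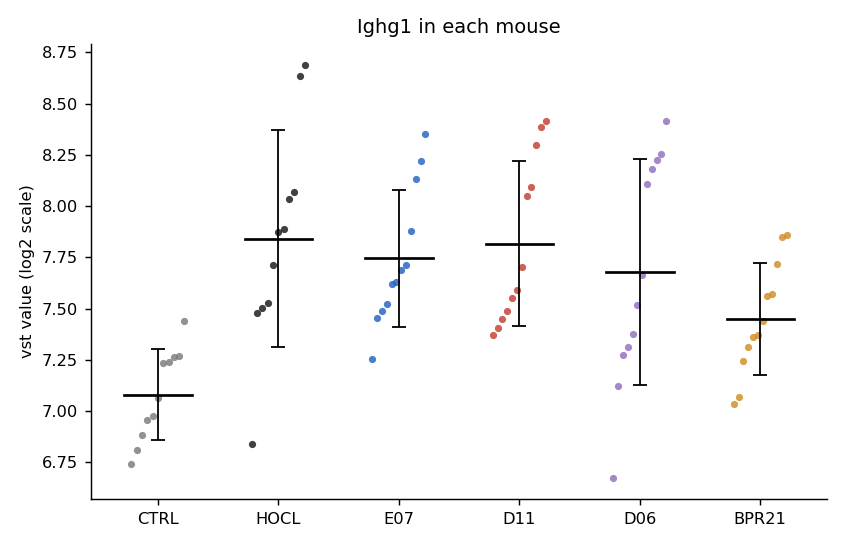
The vst value of Ighg1 (log2 scale, y axis) is plotted for each mouse of the 6 groups (x axis, 11 CTRL, 11 HOCL and 12 mice in each other group). Points are mice, the horizontal bar is the mean and the error bar the SD; 11 of 12 E07 mice lie above every control mouse, and the HOCL and D11 means lie close to the E07 mean.

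Members of the B cell list leaned upward in E07 blood without passing the FDR. All 18 members had higher means in E07 mice, 14 of them at an unadjusted p under 0.05 where 4.17% of all genes had such a value, and the median log2 fold change was 0.27 beside 0.00 over all genes. None of the 18 passed the FDR over all genes (smallest FDR = 0.284). Blk, a kinase of the Src family in B cells, had vst values of 9.67, 10.16 and 10.53 (lowest, median and highest) in E07 and 9.20, 9.68 and 10.18 in control mice. In 11 of the E07 mice the value was over the control median and in 6 it exceeded all control values. The difference in Blk was 0.46 on the log2 scale (95% interval 0.20 to 0.71, limma FDR = 0.284). Tnfrsf13c, the receptor for the survival factor BAFF, differed by 0.34 (FDR = 0.354) with all 12 E07 mice over the control median. Cd79a, a signalling chain of the B cell receptor, differed by 0.39 (FDR = 0.362), the inhibitory receptor Cd22 by 0.37 and Ms4a1, which encodes CD20, by 0.28.

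MHC class II genes, which present peptides and are strongly expressed by B cells, showed the same lean. All 11 had higher means in E07 mice, 9 of them at an unadjusted p under 0.05, beside 4.17% of all genes. The median log2 fold change was 0.31 and the smallest FDR 0.362. H2-Aa, an alpha chain, had values of 12.95, 13.52 and 13.81 in E07 and 12.46, 13.08 and 13.53 in control mice, and 6 E07 mice exceeded all control values. Its difference was 0.38 (95% interval 0.13 to 0.62, limma FDR = 0.370). H2-Ob, part of the H2-O complex that modulates peptide loading in B cells, differed by 0.33 and the invariant chain Cd74 by 0.24. H2-Aa and H2-Eb1 (0.34) overlap on opposite strands, and MHC genes vary between mouse strains, so that their counts depend on how reads of BALB/c alleles were assigned.

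The remaining immunoglobulin constant genes had smaller differences than Ighg1. Of 12 measured on the vst scale, 11 had higher means in E07 mice. An unadjusted p under 0.05 with a higher mean was found for 7, beside 4.17% of all genes, with Ighg1 the 1 that passed the FDR. The lambda light chain gene Iglc2 had values of 10.47, 11.03 and 11.30 in E07 and 9.88, 10.40 and 11.19 in control mice, a difference of 0.46 (limma FDR = 0.347). Ighd, the constant gene of IgD on naive B cells, differed by 0.41 (FDR = 0.410), the kappa constant gene Igkc by 0.31 and Ighm, for IgM, by 0.21. Of the other IgG classes, Ighg2b differed by 0.29 (FDR = 0.562) and Ighg3 by 0.23 (FDR = 0.631). Ighg2c and Igha, for IgA, lay within 0.05 of 0, and neither Ighe nor Iglc4, with a median of 1 and 9.5 counts in E07 mice, passed edgeR's filter on low counts. Ighg2c had medians of 21 counts in E07 and 18 in control mice. It was counted on a reference of another strain, so its value need not describe an IgG class of these BALB/c mice. Immunoglobulin constant genes took 0.387% ± 0.086 (SD, n = 12) of counts in E07 and 0.316% ± 0.091 (n = 11) in control mice. Plasma cell genes did not lean with them: the median of 9 genes was 0.02, Slamf7 differed by 0.26 (FDR = 0.354) and Xbp1, a transcription factor of antibody secretion, by -0.18.

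A direct comparison with the other HOCl groups gave calls for B cell and MHC class II genes. Past both thresholds, 12 of 18 B cell genes were higher in E07 than in untreated HOCl mice, beside 0.876% of all genes in that direction, 3 of 18 than in D11 (0.295%), 14 of 18 than in D06 (1.34%) and 13 of 18 than in BPR21 mice (1.57%). Of the 11 MHC class II genes, 4, 7, 10 and 11 passed in the same 4 comparisons. These counts depended on the scaling and the test: on log2 (CPM + 1) values, 18 B cell genes passed against D11 mice and 10 MHC class II genes against HOCl mice, with each mouse's median subtracted 3 MHC class II genes passed against D11, and with edgeR 8 B cell genes passed against BPR21 mice. With edgeR, 269 of all genes were higher past both thresholds in E07 than in BPR21 mice. How many of all genes passed on log2 (CPM + 1) or median-subtracted values was not counted. The list counts on those scales thus have no share beside them and cannot be read as particular to these genes. Tnfrsf13c was 0.63 higher in E07 than in HOCl mice (limma FDR = 1.89e-04), whereas its difference of HOCl from control was -0.28. Without E07 mice 5, 9 and 10, the 18 B cell and 11 MHC class II genes remained higher on average in each comparison, but the numbers past both thresholds were 8 and 2 against HOCl, 10 and 8 against D06, and 0 and 0 against both D11 and BPR21 mice. The share of all genes called in these fits was not counted. Calls for erythroid genes, lower in E07 mice, also went from 14 to 0 against D11 and from 19 to 0 against BPR21 mice. Against HOCl they went from 29 to 26, and against D06 mice they stayed at 29. The counts of 0 were therefore not particular to B cell and MHC class II genes. Libraries of the other HOCl groups with high liver sums stayed in these fits. Against control mice, E07 mice 5, 9 and 10 were left out in the same way. The B cell genes at an unadjusted p under 0.05 then numbered 7 of 18 and the MHC class II genes 3 of 11. Without control mouse 12 they numbered 11 and 6, with medians of 0.29 and 0.24. Over all genes, 799 had such a p in the full fit, 590 without the 3 E07 mice and 1082 without control mouse 12.

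**Figure D3:**
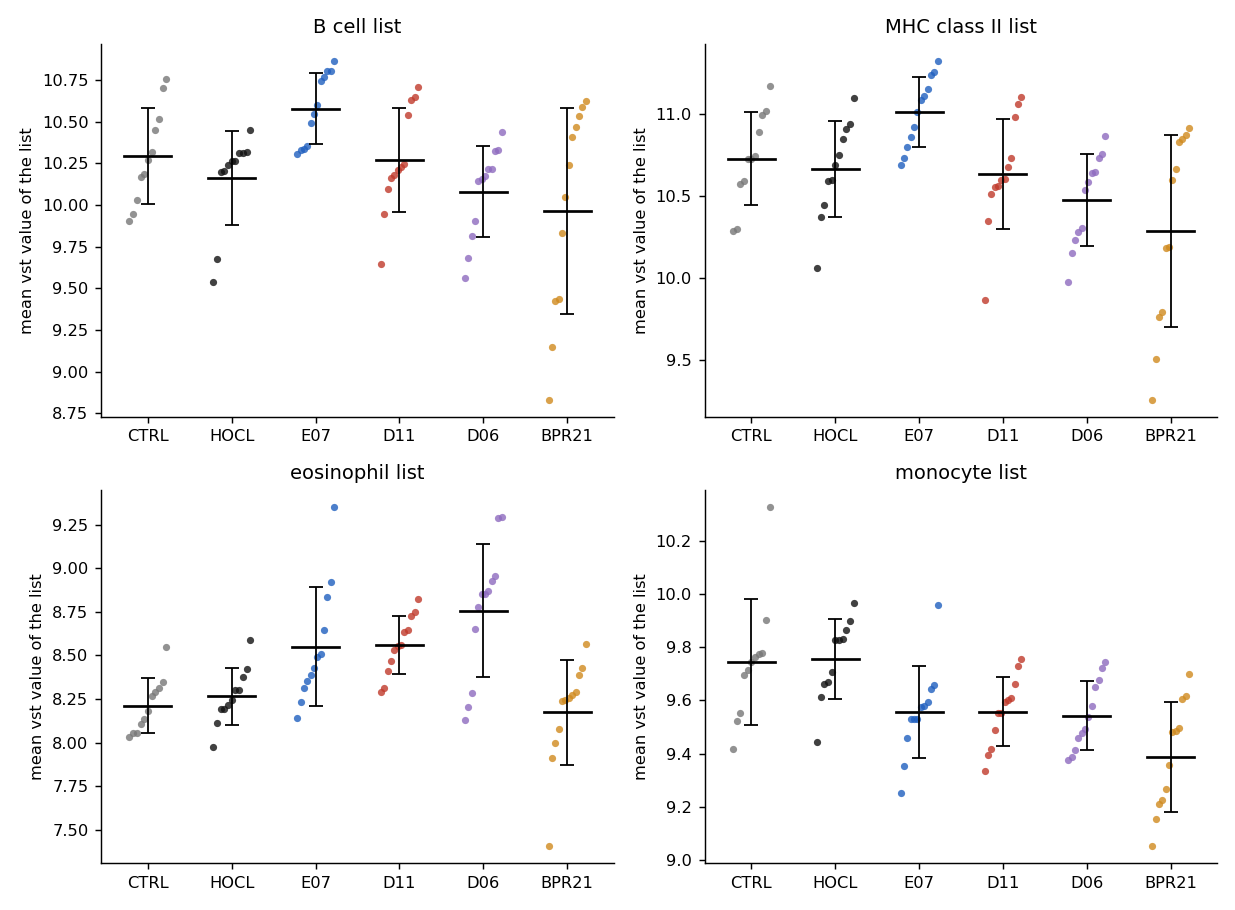
The mean vst value over the members of a list (y axis, log2-like scale) is shown for each mouse of the 6 groups (x axis), for the B cell (18 genes), MHC class II (11), eosinophil (11) and monocyte (24) lists; bars are means and error bars SD. The E07 mean lies above the control mean for the first 3 lists and below it for the monocyte list, with overlapping mice in each panel.

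Eosinophil genes also had higher values in E07 mice without passing the FDR. Eosinophils are granulocytes of allergic and antiparasitic responses that depend on interleukin-5. Of 11 genes, 9 had higher means in E07 mice, with a median log2 fold change of 0.36. An unadjusted p under 0.05 with a higher mean was found for 7, beside 4.17% of all genes. Ccr3, the eotaxin receptor, had vst values of 8.89, 9.40 and 10.41 (lowest, median and highest) in E07 and 8.26, 8.91 and 9.29 in control mice, and 8 E07 mice exceeded all control values. Its difference was 0.73 (95% interval 0.40 to 1.05, limma FDR = 0.115), and edgeR gave 0.99 (FDR = 0.0791). Alox15, a lipoxygenase of eosinophils and macrophages, had values of 8.57, 9.25 and 10.51 against 8.07, 8.57 and 9.14, a difference of 0.76 (limma FDR = 0.115). Il5ra, the receptor chain for interleukin-5, differed by 0.39 (FDR = 0.289) and Siglecf, a sialic acid receptor of eosinophils, by 0.27 (FDR = 0.631). Ear1 and Ear6, which encode eosinophil ribonucleases, differed by 0.56 and 0.59, while Ear2 differed by -0.22, and reads of this gene family may be split between near-identical copies. Prg2, for major basic protein, exceeded all control values in 6 E07 mice and differed by 0.36, with some mice of both groups at the lowest value of the vst scale, which stands for a count of 0.

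The eosinophil values varied widely between E07 mice, and their SD over mice was larger than that of control mice, 0.34 against 0.16 for the mean of the list. Against the shared control mice, Ccr3 differed by 0.06 in HOCl (limma FDR = 0.876), 0.95 in D11 (FDR = 0.0102), 1.23 in D06 (FDR = 0.00118) and 0.02 in BPR21 mice (FDR = 0.974). Ccr3 was 0.67 higher in E07 than in HOCl (FDR = 0.00832) and 0.71 higher than in BPR21 mice (FDR = 0.0279), and did not differ by the test from D11 (-0.22, FDR = 0.545) or D06 mice (-0.50, FDR = 0.168). Over the list, 2 of 11 genes were higher past both thresholds in D11 than in control mice, beside 0.0761% of all genes, and 7 in D06 mice, beside 7.27%. Without E07 mice 5, 9 and 10, Ccr3 was 0.67 higher than in HOCl (FDR = 0.0285) and 0.71 higher than in BPR21 mice, with an FDR of 0.0910. Without control mouse 12, 5 of the 11 eosinophil genes had an unadjusted p under 0.05, where 1082 of all genes had such a p, against 799 with it.

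Basophil and mast cell genes had higher means for 8 of 9 members, with a median of 0.24. Of these, 5 had an unadjusted p under 0.05, beside 4.17% of all genes. Without control mouse 12 the number was 6 and the median 0.30. At that p there were 1082 of all genes in either direction without this mouse, against 799 with it. Against the shared control mice, all 9 means were also higher in each other HOCl group. Their medians were 0.18 in HOCl, 0.32 in D11, 0.40 in D06 and 0.35 in BPR21 mice, so this lean was not particular to E07 mice. Fcer1a, the IgE-binding chain of the high-affinity IgE receptor, differed by 0.47 (limma FDR = 0.354) with 11 E07 mice over the control median. Mcpt8, a basophil protease, differed by 0.41 (FDR = 0.536) and Cpa3, a protease of mast cells and basophils, by 0.24. Adora3, a receptor for adenosine found on granulocytes and mast cells, was outside the list and had values from 7.13 to 8.08 against 6.27 to 7.42, with 7 E07 mice exceeding all control values and a difference of 0.58 (FDR = 0.115). It shares its strand with the overlapping gene Tmigd3, and reads of both genes may be mixed.

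Monocyte genes leaned downward. Of 24 genes, 21 had lower means in E07 mice and 9 of these had an unadjusted p under 0.05, beside 3.44% of all genes, with a median log2 fold change of -0.19 and a smallest FDR of 0.284. Without control mouse 12 the number was 11, and without E07 mice 5, 9 and 10 it was 6. Over all genes the number in either direction moved the same way, from 799 to 1082 and to 590. Against the shared control mice, 21 of the 24 means were also lower in D11 (median -0.13), D06 (-0.20) and BPR21 mice (-0.41). In untreated HOCl mice 15 were lower, with a median of -0.02. The downward lean was thus not particular to E07 mice. Between E07 and D11 mice, 14 means were higher and 10 lower in E07, with 0 past both thresholds. F13a1, a coagulation factor subunit of classical monocytes, had values of 10.36, 10.97 and 11.45 in E07 and 11.03, 11.43 and 11.97 in control mice, and 7 of 12 E07 mice were below every control mouse. The difference was -0.45 (95% interval -0.69 to -0.20, limma FDR = 0.284). Ms4a6c, a monocyte membrane protein, had values of 9.96, 10.30 and 10.95 against 10.54, 10.97 and 11.44, with all 12 E07 mice below the control median. Ccr2, the receptor that brings monocytes out of the bone marrow, differed by -0.45, the lysozyme gene Lyz2 by -0.41 (FDR = 0.289), Ly6c2 by -0.33 and Cx3cr1, a receptor of patrolling monocytes, by -0.37. Csf1r, the receptor of the main growth factor of monocytes, differed by -0.32 (FDR = 0.684).

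P2ry6, a receptor for the nucleotide UDP, was outside the list and had the smallest p among genes with lower means. Its values were 7.06, 7.32 and 7.80 in E07 and 7.55, 7.85 and 8.33 in control mice, with 10 of 12 E07 mice below every control mouse and a difference of -0.45 (limma FDR = 0.114). Among dendritic cell genes, Cd209a, a lectin receptor, differed by -0.45 (FDR = 0.289). Of the 8 genes, 2 had lower means at an unadjusted p under 0.05, beside 3.44% of all genes. In the monocyte list, 3 of 24 genes were lower past both thresholds in E07 than in HOCl mice, beside 7.01% of all genes, and 7 were higher in E07 than in BPR21 mice, beside 1.57%. Without E07 mice 5, 9 and 10 these counts were 1 and 0. The share of all genes called in these fits was not counted. Erythroid calls against BPR21 mice also fell, from 19 to 0, so that loss was not particular to monocyte genes. BPR21 mice themselves were lower than control in 7 genes of the list (0.352% of all genes). F13a1 was 0.88 lower in E07 than in HOCl mice (FDR = 1.71e-04), and its difference of HOCl from control was 0.43.

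**Figure D4:**
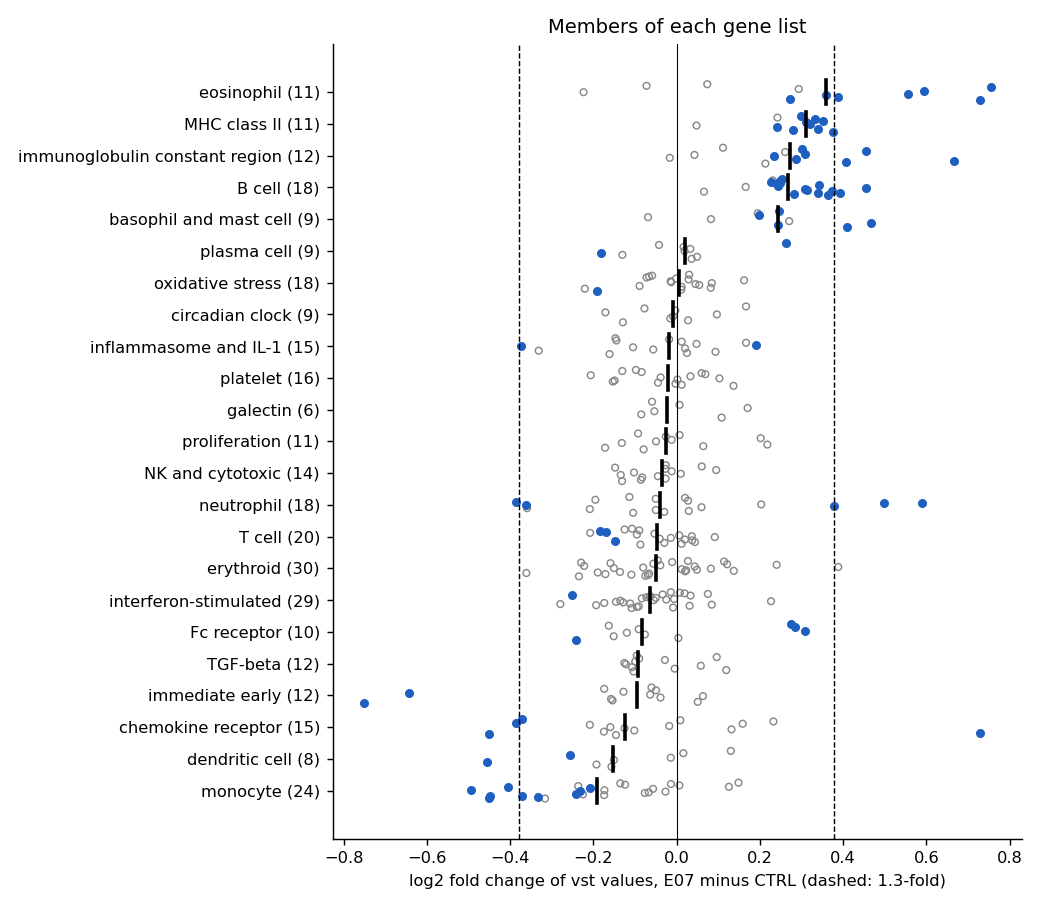
Each point is a gene of the named list (y axis, number of genes in brackets) at its log2 fold change of vst values, E07 minus CTRL (x axis); filled points have an unadjusted limma p under 0.05, black bars are medians and dashed lines mark 1.3-fold. The medians of the eosinophil, MHC class II, immunoglobulin constant, B cell and basophil and mast cell lists lie at 0.24 to 0.36, that of the monocyte list at -0.19 and those of the other lists between -0.15 and 0.02.

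Red cell precursor genes showed no lean between E07 and control mice. Of 30 erythroid genes, 12 had higher and 18 lower means in E07 mice, 0 had an unadjusted p under 0.05 by limma and the median was -0.05. Slc4a1, the anion exchanger of the red cell membrane, had values of 11.41, 12.20 and 13.79 in E07 and 10.89, 12.94 and 14.15 in control mice, a difference of -0.23 with a wide interval of -0.89 to 0.42. Only 4 of the 30 genes had an interval within 1.3-fold, beside 86.2% of all genes, because red cell genes varied widely among mice of both groups. Without control mouse 12, 21 of the 30 means were higher in E07 mice and the median was 0.12. Against the shared control mice the median of the 30 genes was 1.22 in HOCl, 0.70 in D11, 1.14 in D06 and 0.74 in BPR21 mice. Higher past both thresholds were 25 of the 30 in HOCl (4.79% of all genes), 0 in D11 (0.0761%), 28 in D06 (7.27%) and 0 in BPR21 mice (0.152%). In E07 mice, 29 of the 30 genes were lower past both thresholds than in HOCl mice (7.01% of all genes), 14 than in D11 (4.27%), 29 than in D06 (8.42%) and 19 than in BPR21 mice (5.69%). Without E07 mice 5, 9 and 10 these counts were 26, 0, 29 and 0, with all 30 means lower in each. The share of all genes called in these fits was not counted. B cell and MHC class II genes also had 0 calls against D11 and BPR21 mice there, so the counts of 0 were not particular to erythroid genes.

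Interferon-stimulated genes, which blood cells induce on sensing virus-like signals and which are often raised in SSc, showed 7 higher and 22 lower means among 29 genes, with 1 at an unadjusted p under 0.05 and a median of -0.06. Irf7, a transcription factor that amplifies the interferon response, had values of 12.11, 12.47 and 13.47 in E07 and 11.84, 12.64 and 14.03 in control mice, a difference of -0.14 (limma FDR = 0.949). Its differences were 1.04 for HOCl from control and -1.17 for E07 from HOCl mice (FDR = 5.67e-04). Ifit1, an antiviral protein, differed by -0.11 between E07 and control mice.

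T cell, NK cell and platelet genes had small differences from control. For T cells, 19 of 20 genes had an interval within 1.3-fold, beside 86.2% of all genes, and the median was -0.05. Tcf7, a transcription factor of naive T cells, differed by -0.17 (95% interval -0.32 to -0.02, limma FDR = 0.576), 1 of 3 genes of the list with lower means at an unadjusted p under 0.05. The T cell receptor subunit Cd3e differed by -0.09. None of 14 NK and cytotoxic genes and none of 16 platelet genes had an unadjusted p under 0.05 by limma, with medians of -0.04 and -0.02. An interval within 1.3-fold was found for 12 of the 14, near the 86.2% of all genes. For platelets it was found for 10 of the 16, a lower share than over all genes.

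Neutrophil genes had values in both directions. The granule genes Ngp and Camp, which immature neutrophils of the bone marrow transcribe, differed by 0.59 (limma FDR = 0.322) and 0.50 (FDR = 0.354). Ngp had values of 7.68, 8.30 and 9.32 in E07 and 6.92, 7.74 and 8.69 in control mice, and HOCl mice reached 11.75. Lcn2, another granule gene, differed by -0.36 (FDR = 0.641), Retnlg by 0.38 and Cxcr4, the receptor that retains neutrophils in the marrow, by -0.39. The median of the 18 neutrophil genes was -0.04.

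Lgals3, the gene of the target, had values of 10.43, 10.90 and 11.38 in E07 and 10.58, 10.88 and 11.52 in control mice, and 6 of the E07 mice were over the control median. The difference was -0.09 with a 95% interval of -0.32 to 0.15 (limma FDR = 0.941), an interval within 1.3-fold. The means were 10.87 ± 0.31 (SD, n = 12) and 10.95 ± 0.28 (n = 11). All 6 galectin genes measured had an interval within 1.3-fold on the vst scale, with Lgals1 at 0.11 and Lgals9 at -0.06. Most genes did, 86.2% of all genes, so this was not particular to galectins. These are transcript levels, and galectin-3 protein was not measured in these files.

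Of the other lists, the immediate early genes held the largest negative values. Fos, a subunit of the transcription factor AP-1, had values of 6.76, 7.66 and 8.61 in E07 and 7.36, 8.63 and 9.42 in control mice, with 12 of 12 E07 mice below the control median. Its difference was -0.75 (95% interval -1.21 to -0.29, limma FDR = 0.346). Dusp1, a phosphatase that switches off MAP kinases, differed by -0.64 (FDR = 0.354). These transcripts respond within minutes to handling of cells, and no sampling times are given in the labels. No gene of the proliferation (11 genes), TGF-beta (12) or circadian clock (9) lists and 1 of 18 oxidative stress genes had an unadjusted p under 0.05, and Tgfb1 differed by -0.10. At the same p there were 3 higher and 1 lower means among 10 Fc receptor genes, 1 higher (Ccr3) and 3 lower among 15 chemokine receptor genes, and 1 higher and 1 lower among 15 inflammasome and IL-1 genes, with none past the FDR. Over all genes the shares at this p were 4.17% higher and 3.44% lower.

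Mest, Tubb2a and Id3 are 3 genes, picked after their values were seen, because E07 mice differed from each of the other HOCl groups by limma. They were not the only such genes, and how many genes met this criterion was not counted. Tnfrsf13c of the B cell list also passed both thresholds, higher in E07 than in HOCl (0.63), D11 (0.38, FDR = 0.0430), D06 (0.50) and BPR21 mice (0.53, FDR = 0.0267). Their differences from control did not pass by limma or edgeR, whereas DESeq2, an alternative test, called all 3 against control. Mest, an imprinted gene of a hydrolase-like protein on chromosome 6, had values of 9.85, 10.28 and 10.69 (lowest, median and highest) in E07 and 10.37, 10.80 and 11.35 in control mice. All 12 E07 mice were below the control median and 7 were below every control mouse. The difference from control was -0.57 (95% interval -0.80 to -0.33, limma FDR = 0.114). The medians in the other groups were 10.95 in HOCl, 10.80 in D11, 10.85 in D06 and 10.77 in BPR21 mice, and E07 mice were lower by 0.55 to 0.63 than each (FDR = 0.00180 against HOCl, 0.0410 against D11, 0.00559 against D06 and 0.0297 against BPR21). Mest overlaps the gene Copg2 on the opposite strand.

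Tubb2a, a beta-tubulin of microtubules, had values of 9.17, 9.55 and 9.85 in E07 and 9.63, 10.03 and 10.93 in control mice, with 7 of 12 E07 mice below every control mouse and a difference of -0.52 (limma FDR = 0.120). In untreated HOCl mice its values were 10.16, 10.58 and 11.07, a difference of 0.49 from control (FDR = 0.0315), and no E07 mouse overlapped an HOCl mouse. E07 mice were lower than HOCl mice by 1.01 on the log2 scale (95% interval -1.23 to -0.79, FDR = 4.54e-06), and differed by -0.56 from D11, -0.78 from D06 and -0.75 from BPR21 mice, each past both thresholds. A near-identical tubulin gene, Tubb2b, could share its reads.

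Id3, an inhibitor of E proteins that regulates B and T cell development, had values of 8.36, 8.73 and 8.98 in E07 and 7.74, 8.21 and 8.75 in control mice, with all 12 E07 mice over the control median and a difference of 0.48 (limma FDR = 0.115). It was higher in E07 than in HOCl mice by 0.64 (FDR = 5.74e-04), than in D11 by 0.40 (FDR = 0.0238), than in D06 by 0.68 (FDR = 6.00e-04) and than in BPR21 mice by 0.68 (FDR = 0.0136). The choice of the 3 genes fixed that they passed in all 4 comparisons, which share the E07 mice, and these values are a description. With a mouse left out in turn, the FDR was over 0.05 only for Mest, at up to 0.0751 against D11 in 13 of 24 fits (E07 mouse 1, 4, 7, 8, 9, 10 or 11 or D11 mouse 3, 5, 6, 8, 10 or 12) and up to 0.0560 against BPR21 in 5 of 24 (E07 mouse 4, 9 or 10 or BPR21 mouse 11 or 12). Without E07 mice 5, 9 and 10, the 6 tests against HOCl and D06 mice passed and the 6 against D11 and BPR21 mice had an FDR of 0.0880 to 0.152, with the same directions.

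**Figure D5:**
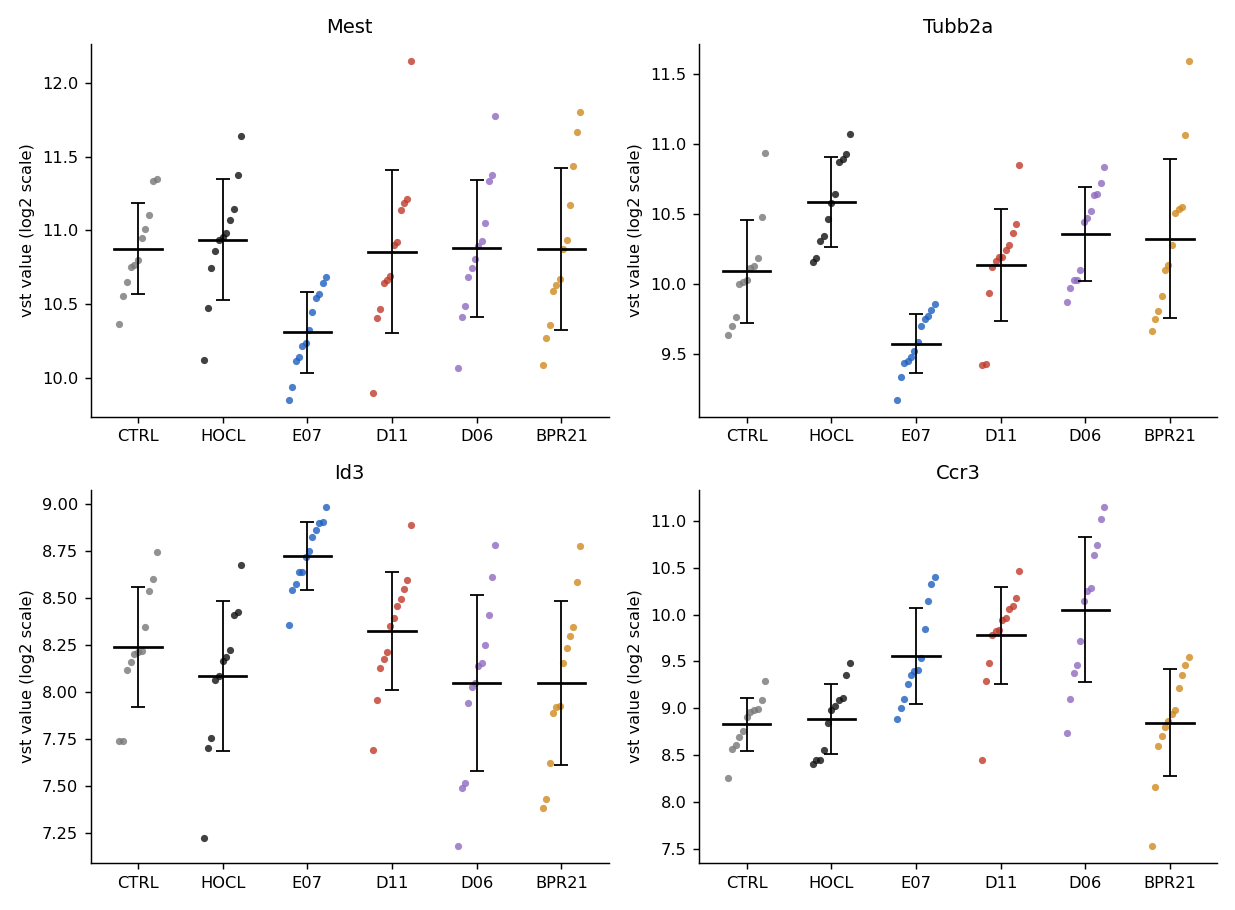
The vst values (y axis, log2 scale) of Mest, Tubb2a, Id3 and Ccr3 are shown for each mouse of the 6 groups (x axis), with means and SD as bars. E07 mice lie lowest on average for Mest and Tubb2a and highest for Id3, whereas Ccr3 is also high in D11 and D06 mice.

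The remaining genes with the smallest p had an FDR of 0.115 to 0.151 by limma. Lower means were found for Pid1 (-0.45), an adaptor of receptor signalling, Amz1 (-0.48), a metallopeptidase, Tifab (-0.51), a regulator of NF-kB signalling, Scarb1 (-0.48), the HDL receptor, and Crispld2 (-0.43), a secreted protein that binds endotoxin. Between 6 and 8 of the 12 E07 mice were below every control mouse for each of these 5 genes. Higher means were found for the zinc finger genes Zfp523 (0.46) and Zfp219 (0.33) and for 2610528A11Rik (0.32), whose control median stood at the lowest value of the vst scale. Tifab and Scarb1 also had low values in the D11, D06 and BPR21 groups. Against the shared control mice, Tifab differed by -0.50 in D11 (FDR = 0.110), -0.61 in D06 (FDR = 0.00321) and -1.04 in BPR21 mice (FDR = 0.00192), and by -0.06 in untreated HOCl mice. Scarb1 differed by -0.43, -0.47 and -0.61 in the same 3 groups and by 0.04 in HOCl mice, and was lower in E07 than in HOCl mice by 0.52 (FDR = 3.25e-04).

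The spread among mice also differed between the groups. The SD over mice was smaller in E07 than in control mice for 69.8% of genes, with median SDs of 0.19 and 0.23 on the vst scale, a description without a test. The p-values measure the spread between mice of 1 experiment, and an FDR above 0.05 with 12 and 11 mice does not show that a gene had the same level in both groups.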

How the data were processed

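Terminal blood was taken from each mouse after euthanasia and bronchoalveolar lavage, and RNA was sequenced after poly A selection and globin depletion. The deposited counts are reads per gene that the authors obtained by trimming with Cutadapt, alignment to mm39 with STAR and counting with FeatureCount; the strand setting of the counting is not given in the sources used here. The deposited log2 values are the authors' variance stabilizing transformation (vst, DESeq2) of these counts, after genes that do not code for proteins and genes of low expression were removed, while immunoglobulin genes such as Ighg1 are in the table.

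Groups were taken from sample titles. E07 and control mice were compared with limma 3.58.1 on vst values and with the quasi-likelihood test of edgeR 4.0.16 on counts (TMM, filterByExpr) in R 4.3.3, each across all genes with Benjamini-Hochberg adjustment (FDR at most 0.05, fold-change at least 1.3). Intervals are 95% intervals of limma. The other HOCl groups were compared in the same way, without HOCl mouse 8, which has counts but no vst value here. Scripts were tested on simulated data. Named genes were those past both thresholds, the genes with the smallest p in each direction, and members of the lists. The members and the gene lists were chosen with earlier results of these data known. No label tied mice to cultures or batches beyond their group, and 0 libraries were identical. Sequences and coordinates come from GRCm39 with GENCODE vM39. Alternatives (scaling, filters, DESeq2 1.42.0, limma-voom, a covariate, a replicate block, leaving out mice) are given in the closing section. Values of a member of the gene lists are not reported here.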

Additional observations from a re-analysis of the deposited data

How the results depend on the processing

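The count of genes past both thresholds, 1 in limma and 1 in edgeR, was small enough that many settings moved it. By limma it was 0 with all 6 groups in one fit (394 genes at an unadjusted p under 0.05) and 0 under a stricter filter on the mean vst value that leaves out Ighg1 (594 such genes). It was 20 with DESeq2 on the same genes and 4 with an erythroid score as a covariate. With edgeR as the reference it was 24 with no filter beyond 1 count, many of them liver genes, 18 with DESeq2, 0 with limma-voom (934 genes at an unadjusted p under 0.05), 0 with all 6 groups in one fit (505) and 6 with the erythroid covariate. Leaving out E07 mice 5, 9 and 10, a choice made after seeing the data, gave 0 in limma (590 genes at an unadjusted p under 0.05) and 0 in edgeR (623). Leaving out 1 mouse at a time gave 0 to 8 genes in limma and 0 to 10 in edgeR, the highest without E07 mouse 6. The number of genes with an interval within 1.3-fold was 9053, and 3267 on the log2 (CPM + 1) scale. Apart from the filter, the causes were not tested.

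A replicate block on the number of the mouse gave 13 genes in limma, Mest and Id3 among them, and 6 in edgeR, and Ighg1 had a log2 fold change of 0.67 (limma FDR = 0.0337) and of 1.52 (edgeR FDR = 0.0471). Same-numbered mice correlated at -0.13 to 0.38 over 11 pairs, with a mean of 0.15 against -0.0097 for other pairs. Of the pairs, 7 were over 0.1, and 4 E07 mice correlated best with the control mouse of their own number. The main tests did not pair the mice, because a rule that every pair be over 0.1 was not met. That rule does not show that same-numbered mice were unrelated, and whether they shared a batch was not tested.

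Ighg1 kept its direction in every setting that tested it. Its FDR was 0.324 in limma and 0.221 in edgeR with all 6 groups, and 0.0974 with limma-voom. With edgeR on counts, 7 small differences changed sign from limma: Amz1 in HOCl against control (0.037), Mest in D11 (0.048) and BPR21 (0.054) against control, Alox15 in E07 against D11 (0.023), 2610528A11Rik in E07 against D06 (-0.064) and BPR21 (-0.096), and Crispld2 in E07 against D06 (-0.016). Scarb1 in E07 against D06 was 0.00063 without E07 mice 5, 9 and 10, against -0.01 with them. The cause was not tested. Ighg1 rests on 11 to 270 counts per mouse, and low-count genes have the widest uncertainty.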

Other observations

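Immunoglobulin variable and joining segments, a group chosen after values were seen and tested on counts with edgeR, had higher means in E07 than in control mice for 111 of 134 segments tested, of 380 in the table. At an unadjusted p under 0.05 there were 22 with higher and 0 with lower means, none passed the FDR, and the median log2 fold change was 0.29. Over all genes in that test, 2.97% were higher and 3.26% lower at this p, and 47.4% had a higher mean. Among kappa variable segments 17 of 80 had such a p, and among heavy chain variable segments 3 of 43.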
